A study of Mus musculus with 4 samples.

Results

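The collagen family of the mouse was followed in kidney sections of mice without urate oxidase. Its members were taken as all genes whose symbol has the form Col, a type number, the letter a and a chain number, which gave 44 of the 32285 genes in the files. Of these, 11 encode fibrillar chains, 6 the type IV chains of basement membranes, 9 the fibril-associated chains with interrupted triple helices (FACIT) and 18 other chains. Collagen chains assemble in threes into triple helices that are secreted, trimmed and crosslinked. Fibrillar collagens I, III and V form the fibres of the interstitium and of scars, and in the kidney they are made chiefly by fibroblasts, pericytes and myofibroblasts. Type IV collagen forms the sheet under epithelia and endothelium: the alpha1 and alpha2 chains are found in basement membranes throughout the kidney, while the alpha3, alpha4 and alpha5 chains make the mature network of the glomerular and some tubular basement membranes, the network affected in Alport syndrome.

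Spatial gene expression (Visium) was measured on 10 µm fresh frozen kidney sections, 2 from Uox_KO and 2 from Control mice. All mice were male. The Uox_KO mice carry a deletion of exons 2 to 4 of Uox, the gene of the liver enzyme that degrades uric acid. The deletion is on the C57BL/6J background, and the Control mice are wild type. The labels name 1 section per sample and no treatment, and the age of the mice is not given in the sources used here. A section is the replicate throughout (n = 2 per genotype). The labels do not say how the sections relate to litters or runs, so a p-value measures the spread between these sections only.

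Sections held 2528 and 3362 spots in Control and 2650 and 2590 in Uox_KO, with 93524222 and 107962997 UMIs (unique transcript tags) in Control and 53897511 and 57230517 in Uox_KO. Depth moved with genotype: median UMIs per spot were 37386 and 32038 for Control, 16674 and 19600 for Uox_KO. A spot is a small region that can hold several cells. Uox had 0 UMIs in all 4 sections, so its level does not check the genotype labels. Barcodes mark array positions, and any 2 sections shared 1861 to 2539 of them. Spots rich in adipocyte or urothelium markers (at least 20 UMIs per 10000) were few in Control (1 and 17) and many in Uox_KO (261 and 284). Calls on single collagen genes in whole sections that were lost without these spots are given with and without them. Levels are CPM, the UMIs of a gene per 1000000 UMIs of the section. Within a set or group of spots they are per 1000000 UMIs of those spots. They are scaled by the trimmed mean of M values (TMM) unless raw totals are named. Fewer cells of a type and less RNA per cell cannot be told apart in such sums.

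Of the type IV genes, Col4a3 had no RefSeq promoter window and is not shown. Promoter sequences of the other type IV genes and of Col1a2 are shown because the type IV genes lie in pairs whose members did or did not move together. They are RefSeq windows on GRCm38.p6, from 250 bases before to 50 after the start, each 300 bases long and written 5′ to 3′ on the strand of the gene. Capitals mark 3 motifs on either strand. They are TATAAA, the core letters of a TATA box, then CCAAT, the box of that name, and finally GGGCGG, the letters of a GC box. Col4a1 (chr8:11312777-11313076, minus strand) and Col4a2 (chr8:11312555-11312854, plus strand) lie head to head, and their windows share 78 bases. Col4a6 (chrX:141474027-141474326, minus strand) and Col4a5 (chrX:141475169-141475468, plus strand) lie head to head on chromosome X with 1274 bases between the genes. The Col4a4 gene overlaps Col4a3 on chromosome 1 by 114 bases at its start, and its window is chr1:82586800-82587099 on the minus strand. The Col1a2 window is chr6:4505368-4505667 on the plus strand. All coordinates given here are those of the windows, not of the whole genes.
Col4a1 promoter: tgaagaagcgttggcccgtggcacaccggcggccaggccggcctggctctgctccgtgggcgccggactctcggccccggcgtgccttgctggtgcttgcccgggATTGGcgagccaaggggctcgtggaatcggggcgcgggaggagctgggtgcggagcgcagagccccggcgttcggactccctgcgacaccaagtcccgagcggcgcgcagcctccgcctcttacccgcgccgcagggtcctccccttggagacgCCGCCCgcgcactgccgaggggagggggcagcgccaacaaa
Col4a2 promoter: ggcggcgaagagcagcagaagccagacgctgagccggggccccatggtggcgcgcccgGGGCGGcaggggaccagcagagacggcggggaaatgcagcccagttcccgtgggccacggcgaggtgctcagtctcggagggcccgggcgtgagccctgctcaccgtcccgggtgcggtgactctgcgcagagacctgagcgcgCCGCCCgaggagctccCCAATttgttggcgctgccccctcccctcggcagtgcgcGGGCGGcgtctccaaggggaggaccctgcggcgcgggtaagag
Col4a6 promoter: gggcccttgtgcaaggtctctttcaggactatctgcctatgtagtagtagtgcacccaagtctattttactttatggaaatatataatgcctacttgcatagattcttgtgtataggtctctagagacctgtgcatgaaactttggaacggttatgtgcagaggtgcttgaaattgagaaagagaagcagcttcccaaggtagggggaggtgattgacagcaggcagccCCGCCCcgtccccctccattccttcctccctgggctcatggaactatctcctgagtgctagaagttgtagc
Col4a5 promoter: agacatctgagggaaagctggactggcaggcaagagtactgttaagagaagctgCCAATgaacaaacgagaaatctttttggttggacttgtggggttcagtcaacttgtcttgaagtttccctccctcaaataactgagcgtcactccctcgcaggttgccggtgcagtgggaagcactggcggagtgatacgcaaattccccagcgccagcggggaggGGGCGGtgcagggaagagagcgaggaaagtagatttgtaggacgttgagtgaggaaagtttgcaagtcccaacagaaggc
Col4a4 promoter: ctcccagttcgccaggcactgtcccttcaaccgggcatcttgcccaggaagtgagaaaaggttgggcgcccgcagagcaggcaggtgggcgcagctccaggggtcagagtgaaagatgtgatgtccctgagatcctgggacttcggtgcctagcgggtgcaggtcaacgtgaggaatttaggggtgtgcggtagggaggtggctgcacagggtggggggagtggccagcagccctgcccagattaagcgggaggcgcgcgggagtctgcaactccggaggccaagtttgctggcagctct
Col1a2 promoter: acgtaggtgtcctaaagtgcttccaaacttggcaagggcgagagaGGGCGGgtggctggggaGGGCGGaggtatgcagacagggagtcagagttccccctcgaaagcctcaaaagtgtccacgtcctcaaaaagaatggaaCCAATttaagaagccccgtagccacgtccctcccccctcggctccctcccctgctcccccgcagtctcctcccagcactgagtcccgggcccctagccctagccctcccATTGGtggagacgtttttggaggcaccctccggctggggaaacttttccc

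RefSeq windows were found for 35 of the 44 genes, 38 windows in all. GGGCGG stood in 60.5% of these windows and in 35.7% of all 32841 windows of the table. CCAAT stood in 34.2% against 37.4%, TATAAA in 13.2% against 13.6%, and CAGAC in 52.6% against 49.6%. These shares are descriptions of letters in the windows. CAGAC is the short motif bound by Smad proteins, and it is not capitalised in the sequences. Col4a1 and Col4a2 each hold a CCAAT and a GGGCGG match, and the Col4a4 window holds none of the 3 capitalised motifs. The only GGGCGG match of Col4a1 lies in the bases shared with Col4a2. It is the last GGGCGG match of Col4a2 read on the other strand, so this site is counted in both windows.

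Collagen transcripts took a larger part of the RNA in Uox_KO kidneys, and of the 4 class sums the fibrillar one differed by the largest ratio. Collagen UMIs made up 0.0598% and 0.0577% of all UMIs in the Control sections and 0.276% and 0.235% in the Uox_KO sections. Fibrillar chains summed to 88.1 and 80.4 CPM in Control and 1061 and 873 CPM in Uox_KO, an 11.5-fold difference of the means. FACIT chains summed to 37.9 and 34.2 CPM against 166 and 134 CPM (4.15-fold). The other chains summed to 146 and 151 CPM against 612 and 560 CPM (3.96-fold). The type IV chains differed least, with 386 and 365 CPM against 635 and 618 CPM (1.67-fold). Neither genotype overlapped the other in any of these sums. The same held for most single genes, with 43.1% of all genes tested wholly higher and 42.5% wholly lower in Uox_KO. The makeup of the collagen UMIs also differed. Type IV chains were 58.7% and 57.9% of collagen UMIs in Control and 25.7% and 28.3% in Uox_KO, while fibrillar chains went from 13.4% and 12.8% to 42.9% and 40.0%.

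Of the 44 genes, 38 passed the filter on low counts, and 27 of them rose and 7 fell in Uox_KO (edgeR, quasi-likelihood test) at a Benjamini-Hochberg adjusted p under 0.05. Over all 16369 genes tested, 34.6% were higher and 32.5% lower by the same rule. These shares are the background for the whole-section counts by class and by marker list below. Of the collagen genes tested, 24 rose more than 2-fold and 18 more than 4-fold. Col10a1, Col11a1 and Col17a1 passed the filter only through their Uox_KO counts, and Col19a1 only through its Control counts. They are part of the counts given here, but their p-values are not read as support. The median log2 fold change of the 38 was 1.64, against 0.003 over all genes tested. Uox_KO lay wholly above Control for 28 genes and wholly below for 9, against 43.1% and 42.5% of all genes. A lack of overlap is thus common, also for the single genes described in this way below. With raw section totals in place of TMM, all fold changes shift up by a median of 0.26 on the log2 scale. The split over all genes is then 49.8% higher and 17.9% lower, and among the collagen genes 28 are higher and 4 lower. The 6 genes that did not pass the filter (Col2a1, Col9a1, Col9a2, Col22a1, Col25a1 and Col28a1) had 1 to 27 UMIs each over all 4 sections.

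**Figure D1:**
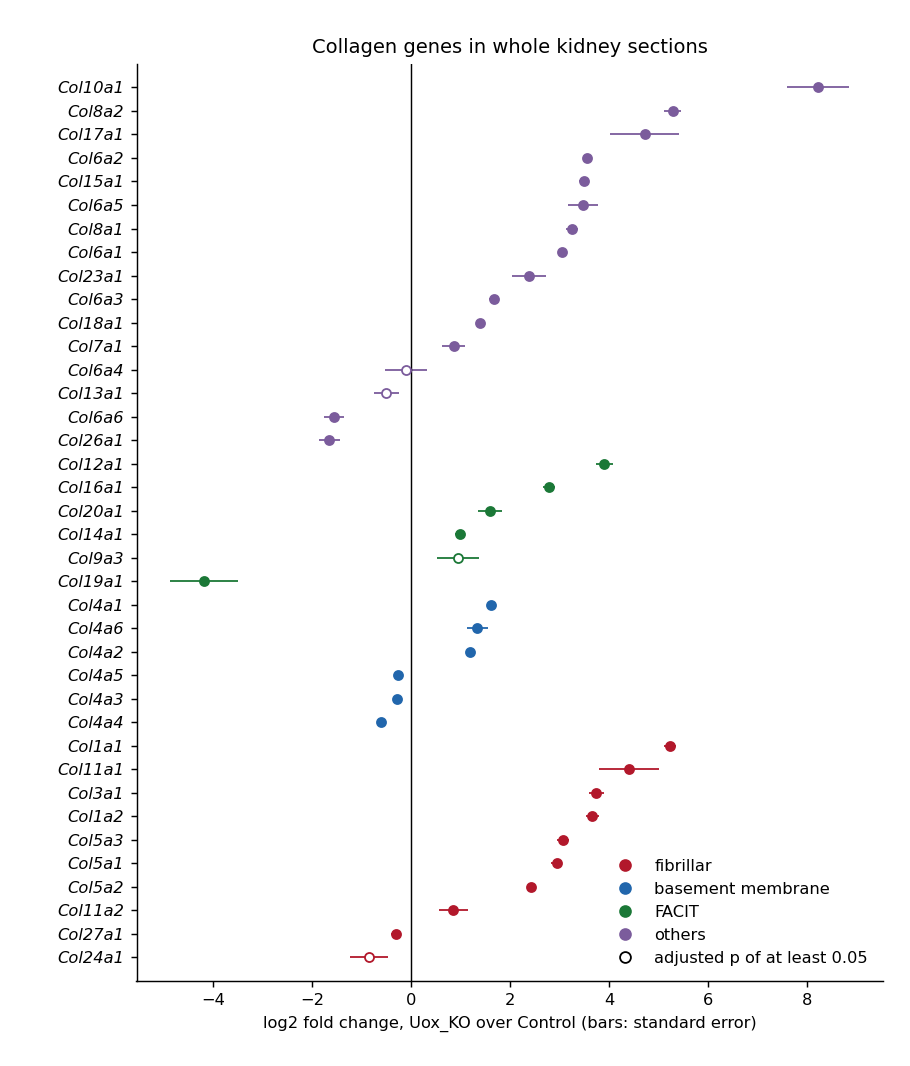
Log2 fold change of Uox_KO over Control (x axis) for the 38 tested collagen genes, grouped and coloured by class, with bars for the standard error and open points for genes not past the threshold. Fibrillar genes lie mostly to the right of 0, up to 5.23 for Col1a1, while the type IV genes fall on both sides.

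Among the fibrillar genes, 8 of 10 tested rose and 1 fell, with a median log2 fold change of 3.0. Col1a1, a chain of type I collagen, the main fibre of scars, was at 7.39 and 6.34 CPM in Control and 276 and 239 CPM in Uox_KO. Both Uox_KO sections were far above both Control sections, and the gene rose 37.6-fold (log2 5.23 ± 0.12, SE, n = 2 sections per genotype, edgeR adjusted p = 1.17e-06). Col1a2, the partner chain of type I, was at 31.1 and 27.9 CPM in Control and 414 and 329 CPM in Uox_KO. It rose 12.6-fold (log2 3.66 ± 0.13, edgeR adjusted p = 3.12e-06). Col3a1, the single chain of type III collagen, was at 19.4 and 16.1 CPM against 270 and 205 CPM. It rose 13.4-fold (log2 3.74 ± 0.16, edgeR adjusted p = 5.39e-06), and its groups did not overlap.

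The type V chains, which nucleate collagen I fibrils and limit their width, also rose. Col5a1 was at 4.31 and 3.70 CPM in Control and 32.9 and 28.4 CPM in Uox_KO (7.66-fold). Col5a2 was at 8.59 and 8.95 CPM against 47.0 and 47.4 CPM (5.38-fold). Col5a3 was at 0.988 and 0.931 CPM against 8.09 and 8.04 CPM (8.40-fold). The groups were apart for all 3, with edgeR adjusted p-values of 3.69e-06, 1.27e-06 and 3.74e-06. Col11a1, a chain of the cartilage-type fibril collagen XI, had 4 UMIs in both Control sections together and 60 in Uox_KO, a ratio of 22.7 (95% counting interval 8.40 to 85.9, edgeR adjusted p = 0.000696). Only the Uox_KO counts took Col11a1 past the low-count filter. Of 4 chondrocyte markers, Acan was at 0 UMIs in every section and Matn1 and Matn3 in both Control sections. The 1 marker that passed the filter was higher in Uox_KO, and the list summed to 0.139 and 0.167 raw CPM in Control and 0.705 and 0.786 in Uox_KO. Its part in the cartilage-type chains was not tested. Col11a2 was at 0.200 and 0.243 CPM against 0.383 and 0.422 CPM and passed narrowly (edgeR adjusted p = 0.0342). It lost that call with DESeq2, without the fat or urothelium spots and without any 1 of the sections (adjusted p 0.0522 to 0.25). Col27a1, a fibrillar chain best known from cartilage, was at 15.6 and 15.7 CPM in Control and 11.3 and 14 CPM in Uox_KO. It was called lower (log2 -0.31 ± 0.11, edgeR adjusted p = 0.0364), but with raw totals the difference was -0.05 (adjusted p = 0.678), and without the fat or urothelium spots it was -0.23 (adjusted p = 0.104). Col24a1 was at 0.482 and 0.445 CPM against 0.150 and 0.357 CPM and did not pass (edgeR adjusted p = 0.0896).

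**Figure D2:**
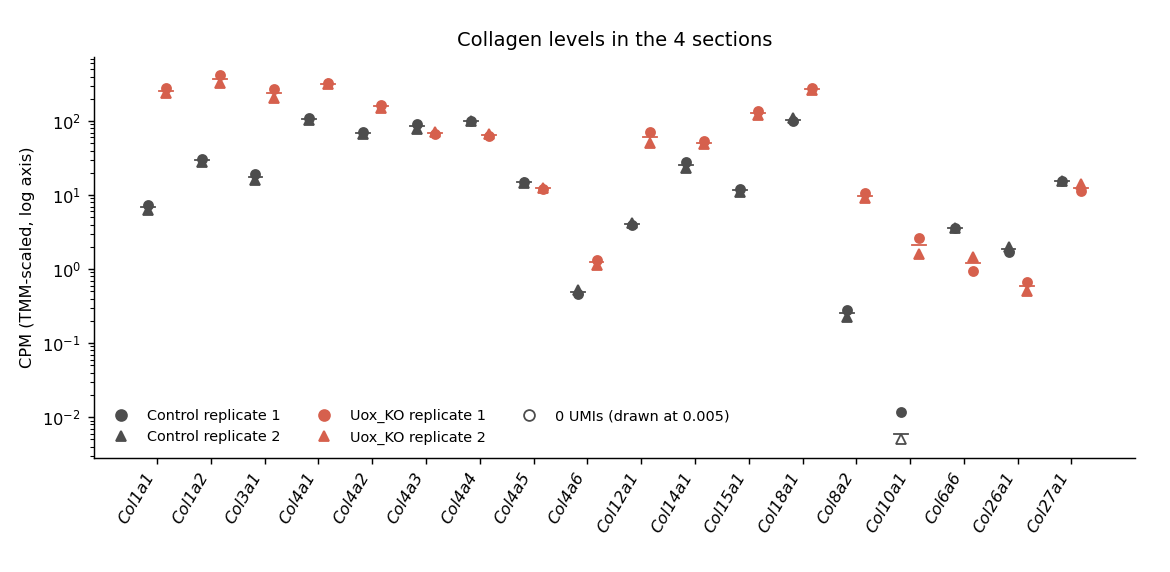
CPM (TMM-scaled, log axis) of 18 collagen genes in each section, circles for replicate 1 and triangles for replicate 2, grey for Control and red for Uox_KO, with lines for the group means. For Col1a1 the Control sections sit at 7.39 and 6.34 and the Uox_KO sections at 276 and 239, whereas for Col4a3, Col4a4 and Col4a5 the red points lie slightly below the grey ones. Levels of different genes are not comparable along the axis, since they are not per length.

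The type IV genes divided by chain, with 3 that rose and 3 that fell of 6 tested. Col4a1 was at 109 and 102 CPM in Control and 328 and 313 CPM in Uox_KO, a rise of 3.04-fold (log2 1.60 ± 0.07, edgeR adjusted p = 5.77e-06). Col4a2, its head-to-head neighbour and partner chain, was at 71.6 and 67.9 CPM against 163 and 152 CPM, a rise of 2.26-fold (log2 1.18 ± 0.07, edgeR adjusted p = 1.48e-05). The groups were apart for both genes. The chains of the mature network stood lower. Col4a4 was at 99.6 and 101 CPM in Control and 63.4 and 67.6 CPM in Uox_KO (log2 -0.62 ± 0.06, edgeR adjusted p = 0.000148), and it remained lower with raw totals (-0.35, adjusted p = 0.00143). Col4a3 was at 90.4 and 78.5 CPM against 66.4 and 71.3 CPM (log2 -0.30 ± 0.08, edgeR adjusted p = 0.0172), which raw totals reduced to -0.03 (adjusted p = 0.742). Without the fat or urothelium spots the Col4a3 difference was -0.19 (edgeR adjusted p = 0.0769). Col4a5 was at 15.2 and 14.7 CPM against 12.2 and 12.6 CPM (log2 -0.27 ± 0.07, edgeR adjusted p = 0.0112), which raw totals reduced to -0.002 (adjusted p = 0.98). Col4a6, the neighbour of Col4a5 and the chain of smooth muscle and Bowman's capsule membranes, was at 0.459 and 0.516 CPM against 1.31 and 1.15 CPM. It rose 2.52-fold (log2 1.33 ± 0.21, edgeR adjusted p = 0.00131) while its head-to-head partner did not.

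Summed, Col4a1 and Col4a2 were at 181 and 170 CPM in Control and 492 and 465 CPM in Uox_KO (2.73-fold). Col4a3, Col4a4 and Col4a5 together were at 205 and 194 CPM in Control and 142 and 152 CPM in Uox_KO, a ratio of 0.734. That ratio is TMM-scaled, and of these chains Col4a3 and Col4a5 differed less and were not called with raw totals, as given above. Podocytes are the main glomerular source of these 3 chains. Of 6 podocyte markers 5 were lower and 1 higher in Uox_KO, with summed raw CPM of 119.5 and 137.9 in Control and 113.5 and 135.3 in Uox_KO. All 6 proximal tubule markers and 3 of 4 thick limb markers were also lower. Their part in the type IV levels was not tested.

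FACIT collagens sit on the surface of fibrils. Of 6 tested, 4 rose and 1 fell. Col12a1, found on type I fibrils of dense tissue, was at 3.88 and 4.25 CPM in Control and 70.9 and 50.7 CPM in Uox_KO, a rise of 14.9-fold (log2 3.90 ± 0.17, edgeR adjusted p = 6.16e-06). Col14a1 was at 28.0 and 23.3 CPM against 53.2 and 48.5 CPM, a rise of 1.98-fold (log2 0.99 ± 0.10, edgeR adjusted p = 0.000146). Both genes separated the genotypes, though the related chains differed in size of change. Col16a1 was at 5.0 and 5.33 CPM against 39.4 and 31.8 CPM (6.89-fold, edgeR adjusted p = 5.21e-06). Col20a1 was at 0.541 and 0.840 CPM against 1.88 and 2.32 CPM (3.02-fold, edgeR adjusted p = 0.00123). Col19a1, a chain of basement membrane zones, moved the other way. It had 31 and 29 UMIs in Control and 2 and 0 in Uox_KO, a ratio of 0.0504 (95% counting interval 0.00596 to 0.19, edgeR adjusted p = 0.00160). Only the Control counts took it past the low-count filter. Col9a3 was at 0.106 and 0.172 CPM against 0.200 and 0.341 CPM and did not pass (edgeR adjusted p = 0.0893).

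Of the 16 other chains tested, 12 rose and 2 fell. Type VI collagen forms beaded microfibrils next to cells from the chains of Col6a1, Col6a2 and Col6a3. Col6a1 was at 7.02 and 5.90 CPM in Control and 53.6 and 53.3 CPM in Uox_KO (8.29-fold). Col6a2 was at 4.35 and 3.65 CPM against 48.2 and 45.9 CPM (11.8-fold). Col6a3 was at 11.1 and 10.5 CPM against 38.0 and 30.5 CPM (3.18-fold). The groups were apart for each, and the edgeR adjusted p-values were 1.68e-06, 1.3e-06 and 2.65e-05. The alternative partner chains did not move as a block. Col6a5 was at 0.224 and 0.334 CPM against 2.46 and 3.81 CPM (11.1-fold, edgeR adjusted p = 9.16e-05), whereas Col6a6 was at 3.56 and 3.60 CPM against 0.948 and 1.48 CPM and fell 2.95-fold (edgeR adjusted p = 0.000561). Col6a4, between 0.111 and 0.176 CPM in every section, did not pass (log2 -0.11 ± 0.42, edgeR adjusted p = 0.844), and its sign turned with raw totals (0.15, adjusted p = 0.773).

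Col15a1 and Col18a1 encode the multiplexins of basement membrane zones, whose C-terminal fragments include endostatin. Col15a1 was at 12.1 and 11.0 CPM in Control and 138 and 121 CPM in Uox_KO (11.2-fold, edgeR adjusted p = 1.3e-06). Col18a1 was at 99.8 and 108 CPM against 282 and 261 CPM (2.61-fold, edgeR adjusted p = 1.29e-05). Both rose with no overlap. The network-forming chains of type VIII, known from vessel walls, rose as well. Col8a1 was at 3.22 and 2.52 CPM against 27.9 and 26.5 CPM (9.51-fold), and Col8a2 was at 0.282 and 0.223 CPM against 10.6 and 9.09 CPM (39.0-fold), with edgeR adjusted p-values of 3.20e-06 and 2.38e-06. Col10a1, the related chain of hypertrophic cartilage, had 1 UMI in Control and 256 in Uox_KO, a ratio of 387 (95% counting interval 68.8 to 15330, edgeR adjusted p = 4.99e-05). Those UMIs were split 158 and 98 between the Uox_KO sections, and 1 and 3 of them lay in fat or urothelium spots. Only the Uox_KO counts took Col10a1 past the low-count filter.

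The remaining chains were scarce. Col7a1, the anchoring fibril chain, was at 0.671 and 0.870 CPM against 1.60 and 1.2 CPM (1.81-fold, edgeR adjusted p = 0.0159), a call lost without Control replicate 1 (adjusted p = 0.104) or Uox_KO replicate 1 (adjusted p = 0.0573). Col17a1, a hemidesmosome chain of stratified epithelia and urothelium, had 3 UMIs in Control and 57 in Uox_KO, a ratio of 28.7 (95% counting interval 9.34 to 143, edgeR adjusted p = 0.000942). Only the Uox_KO counts took Col17a1 past the low-count filter. Col23a1, a transmembrane chain, was at 0.576 and 0.556 CPM against 3.94 and 2.00 CPM (5.23-fold, edgeR adjusted p = 0.000870). Of its UMIs in Uox_KO, 59.1% and 52.9% lay in fat or urothelium spots, and without these spots its log2 fold change went from 2.39 to 1.3 (edgeR adjusted p = 0.00445). Col26a1 was at 1.71 and 1.98 CPM against 0.665 and 0.503 CPM and fell 3.16-fold (edgeR adjusted p = 0.000516). Col13a1 was at 0.800 and 0.829 CPM against 0.466 and 0.682 CPM and did not pass (edgeR adjusted p = 0.113).

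Markers of fibroblasts, myofibroblasts, macrophages and smooth muscle moved with the fibrillar genes, while those of endothelium and mesangium did not rise as a block. All 7 fibroblast markers rose, with summed raw CPM of 53.9 and 45.8 in Control and 397 and 285 in Uox_KO. All 6 myofibroblast markers rose, from 41.7 and 48.2 to 402 and 259. All 7 macrophage markers rose, from 74.4 and 69.0 to 1185 and 920. All 6 smooth muscle markers rose, from 76.0 and 75.8 to 266 and 166. Adipocyte markers went from 57.3 and 66.7 to 1054 and 2173, with 5 of 5 higher, and urothelium markers from 0.524 and 0.676 to 89.2 and 52.7, with 5 of 5 higher. Mesothelium markers went from 0.374 and 0.435 to 40.1 and 32.0, with 3 of 3 tested higher. Endothelium markers went from 250.6 and 250.9 to 202.5 and 210, with 1 of 6 higher and 3 lower. Mesangium markers went from 22.3 and 22.2 to 31.1 and 35.6, with 1 of 3 higher and 1 lower. Krt5, of the urothelium list, was at 0 in both Control sections. The fat or urothelium spots held 7.25% and 10.5% of all UMIs in Uox_KO, and a larger share than that for 9 and 10 of the 27 genes that rose. In both sections these included Col4a6, Col5a3, Col6a5, Col7a1, Col11a2, Col17a1, Col20a1 and Col23a1. Col6a3 was added in replicate 1, and Col6a1 and Col6a2 in replicate 2. The same count was not taken over all genes that rose. For Col1a1 the share in fat or urothelium spots was 4.43% and 7.39%. Without these spots 26 collagen genes were higher and 5 lower, against 34% and 32.5% of all genes tested, and with a stricter limit of 5 UMIs per 10000 for such spots 26 were higher and 6 lower, against 33.7% and 32.2%. The part of the other lists was not tested.

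The difference was spread over the sections and was not limited to a few spots. After each spot was thinned to 5000 UMIs, which left out 6 and 4 shallower spots in Control and 293 and 152 in Uox_KO, Col1a1, Col1a2 or Col3a1 was found in 22.8% and 20.1% of Control spots and in 88.8% and 84.1% of Uox_KO spots. Without thinning these shares were 78.1% and 67.0% in Control and 99.3% and 98.0% in Uox_KO. Col15a1 was found in 5.63% and 5.36% of thinned Control spots and 50.2% and 43.6% of Uox_KO spots. Col18a1 was found in 37.5% and 38.5% against 72.5% and 70.1%. Col4a1 or Col4a2 was found in 56.0% and 53.5% against 86.5% and 84.7%. Col4a3, Col4a4 or Col4a5 went the other way, with 61.1% and 59.0% of Control spots and 53.1% and 55.0% of Uox_KO spots. Without the fat or urothelium spots that gap narrowed, to 61.1% and 59.2% against 56.7% and 58.3%. Counting intervals were then 59.19% to 63.04% and 57.5% to 60.9% in Control. In Uox_KO they were 54.61% to 58.85% and 56.2% to 60.4%. Every Control interval overlapped every Uox_KO interval except for the pair of Control replicate 1 and Uox_KO replicate 1. By class, the thinned shares were 32.4% and 30.4% against 91.2% and 88.9% for fibrillar chains and 83.0% and 81.5% against 92.9% and 92.6% for type IV. They were 16.9% and 15.6% against 53.9% and 47.4% for FACIT, and 48.8% and 48.4% against 88.5% and 86.4% for the others. The high Control share of type IV leaves little room for a gap, so gaps are not comparable between classes. Thinned to 2000 UMIs, type IV was found in 50.6% and 48.9% of Control spots and 73.4% and 69.6% of Uox_KO spots. For FACIT these shares were 7.33% and 6.64% against 33.3% and 26.9%. Spots of a section are not replicates, so these shares carry no test. In Visium, RNA can spread from neighbouring spots, and a share of spots with a UMI does not count spots with expressing cells.

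**Figure D3:**
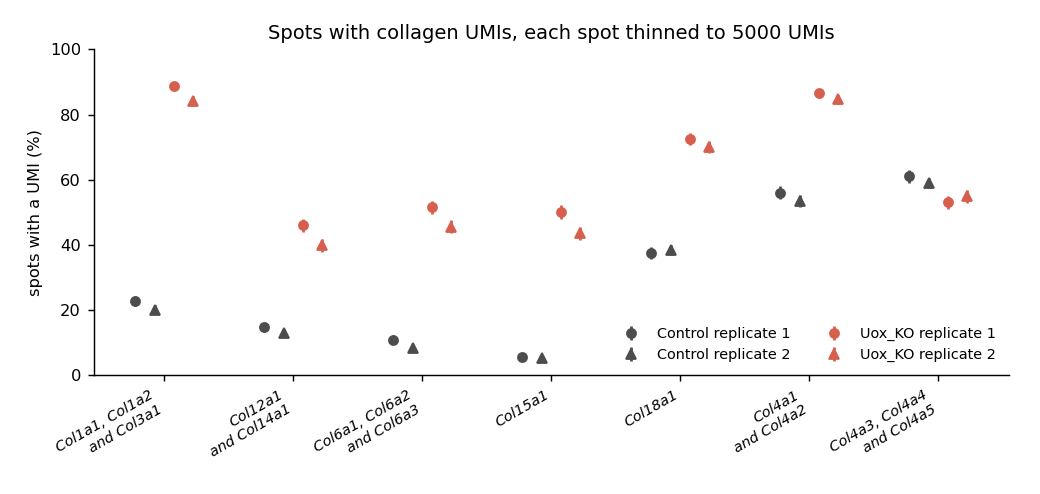
Share of spots with at least 1 UMI of each gene group (y axis, percent) after thinning each spot to 5000 UMIs, by section, with exact 95% binomial intervals that cover counting error only. The red Uox_KO points lie above the grey Control points for every group shown except Col4a3, Col4a4 and Col4a5, where they lie below (53.1% and 55.0% against 61.1% and 59.0%), by less without fat or urothelium spots (56.7% and 58.3% against 61.1% and 59.2%).

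Within a section, collagens were ranked against markers of tubular injury (Havcr1, Lcn2, Krt20, Vcam1 and Sox9). Spots without fat or urothelium were ordered by their share of these UMIs and cut into 5 equal groups, with ties kept in file order. In Control most spots had none of these UMIs, so the order of the lower groups there has no meaning. CPM in these groups are of the raw totals of the spots in a group, not of the section. From the lowest to the highest group of Uox_KO spots, summed Col1a1, Col1a2 and Col3a1 went from 492 to 1975 CPM in replicate 1. In replicate 2 they went from 336 to 1745. Col4a1 and Col4a2 went from 303 to 1002 and from 258 to 945. Col18a1 went from 194 to 545 and from 184 to 489, and Col15a1 from 76.2 to 291 and from 54.6 to 283. Col4a3, Col4a4 and Col4a5 together stayed near one level, from 165 to 176 and from 185 to 173. The lowest group of Uox_KO, with a median of 0 injury UMIs, was still above the highest group of Control for the fibrillar sum (66.1 and 58.6 CPM). Median depth was close between the extreme groups of Uox_KO (16870 and 18510 UMIs, 18790 and 20650 UMIs).

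**Figure D4:**
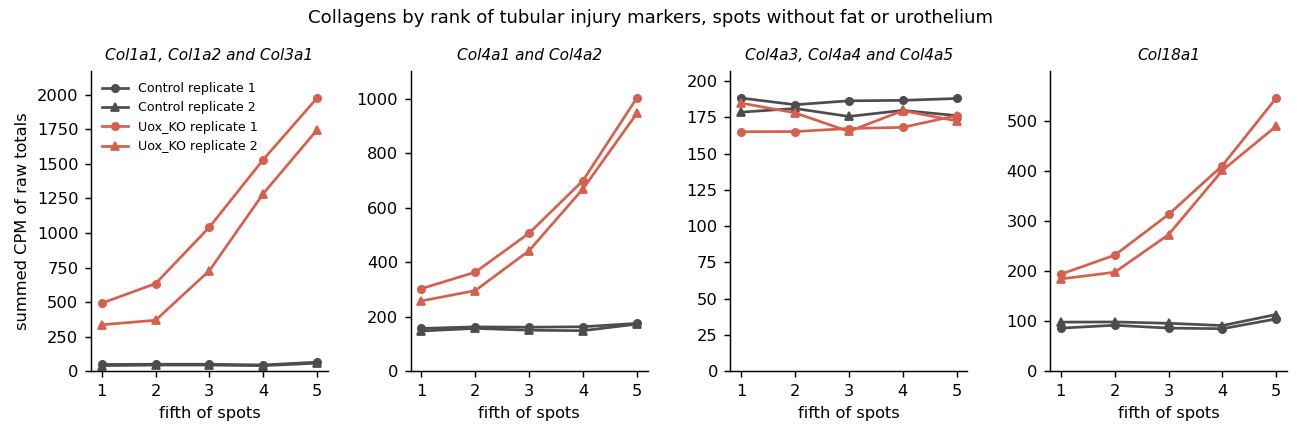
Summed CPM (y axis, from 0) of 4 collagen groups in 5 equal groups of spots ordered by injured tubule markers (x axis, 1 lowest to 5 highest). CPM are of the raw totals of the spots in a group, with 1 line per section and spots without fat or urothelium. In Uox_KO the curves climb for all groups but Col4a3, Col4a4 and Col4a5, which range near 165 to 185 in the end groups.

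The same ranking by macrophage markers gave a steeper slope. Col1a1, Col1a2 and Col3a1 went from 275 to 3175 CPM of raw totals in Uox_KO replicate 1 and from 195 to 2799 in replicate 2. Col4a1 and Col4a2 went from 250 to 1135 and from 224 to 1206, while Col4a3, Col4a4 and Col4a5 went from 164 to 162 and from 176 to 199. Here depth moved too, from a median of 29440 to 12440 UMIs and from 29880 to 12150. The slope was not particular to macrophage markers. For the Col1a1, Col1a2 and Col3a1 sum the highest group was at 11.5 and 14.4 times the lowest. Ranked by myofibroblast markers it was at 11.3 and 13.7 times the lowest. Across the 2388 and 2306 Uox_KO spots, Pearson's r between log shares of the Col1a1, Col1a2 and Col3a1 sum and the macrophage markers was 0.761 and 0.787. It was much the same with fibroblast markers (0.754 and 0.735) and myofibroblast markers (0.754 and 0.76). It was 0.652 and 0.702 with Col4a1 and Col4a2, -0.069 and 0.035 with Col4a3, Col4a4 and Col4a5, and -0.390 and -0.367 with depth. These values describe spots that share a library and a depth.

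The genotype difference was then tested within 4 sets of spots per section, chosen by rank of marker genes that are no collagens. They were podocyte-rich (highest 5%), smooth muscle-rich (highest 5%), thick limb-rich (highest 15%) and proximal tubule-rich (highest 25%) spots. A spot in several sets went to the first in this order, so the later sets fell short of these shares. Podocyte-rich sets held 126 and 168 spots in Control and 132 and 130 in Uox_KO. Smooth muscle-rich sets held 79 and 116 against 101 and 86. Fat or urothelium spots were left out, and each set still holds several cell types. In podocyte-rich spots 21 of 24 tested collagen genes were higher and 0 lower by edgeR, against 23.1% and 22.1% of all genes, and at an unadjusted p under 0.05 the count lower was also 0. In smooth muscle-rich spots 21 of 25 were higher and 1 lower, against 23.3% and 22.3%. In thick limb-rich spots 22 of 30 were higher and 4 lower, against 27.1% and 25.2%, and in proximal tubule-rich spots 21 of 29 were higher and 3 lower, against 27.7% and 25.8%. Of 23 genes tested in every set, 19 were higher in each of the 4. Among these were Col1a1, Col3a1, Col5a2, Col6a2, Col8a2, Col12a1, Col15a1 and Col18a1. All 4 sets were shallower in Uox_KO. Median depth was 22100 and 19310 UMIs in Control against 6432 and 8352 in Uox_KO for podocyte-rich spots, and 25560 and 22890 against 7013 and 7922 for smooth muscle-rich spots. It was 40490 and 34780 against 18560 and 20840 for thick limb-rich spots, and 37080 and 32490 against 23490 and 28350 for proximal tubule-rich spots. The marker share that bounded a set also differed. In UMIs per 10000 it was 2.44 and 2.90 in Control against 10.1 and 7.95 in Uox_KO for smooth muscle-rich spots, 36.0 and 42.5 against 15.7 and 13.9 for thick limb-rich spots, and 168 and 164 against 100.1 and 105 for proximal tubule-rich spots. For podocyte-rich spots it was 7.86 and 8.53 against 7.42 and 9.25, and there the genotypes overlapped. The part of these bounds in the set results was not tested.

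Whether the difference varied between the sets was tested in 1 edgeR fit with the mouse as a block. Of 33 collagen genes tested, 19 varied at an adjusted p under 0.05, against 33.6% of all genes, and the count was 11 without Control replicate 1. Col4a3 varied (edgeR adjusted p = 5.40e-07). It was higher in podocyte-rich spots (log2 0.29 ± 0.11, adjusted p = 0.0239) and proximal tubule-rich spots (0.24 ± 0.08, adjusted p = 0.0130), and lower in thick limb-rich spots (-0.47 ± 0.11, adjusted p = 0.00548). Raw totals took away the thick limb call (-0.18, adjusted p = 0.144) and kept the podocyte and proximal tubule calls (0.57 and 0.21). Col4a4 also varied (edgeR adjusted p = 7.97e-05). It was lower in smooth muscle-rich (-0.79 ± 0.18), thick limb-rich (-0.43 ± 0.09) and proximal tubule-rich spots (-0.42 ± 0.06) but not called in podocyte-rich spots (0.23 ± 0.11, edgeR adjusted p = 0.0671). With raw totals the proximal tubule call held (-0.45), the smooth muscle and thick limb calls were lost (adjusted p = 0.0867 and 0.191), and the podocyte difference passed (0.52, adjusted p = 7.46e-05). Col4a5 was not called in any set, nor between sets (edgeR adjusted p = 0.894).

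**Figure D5:**
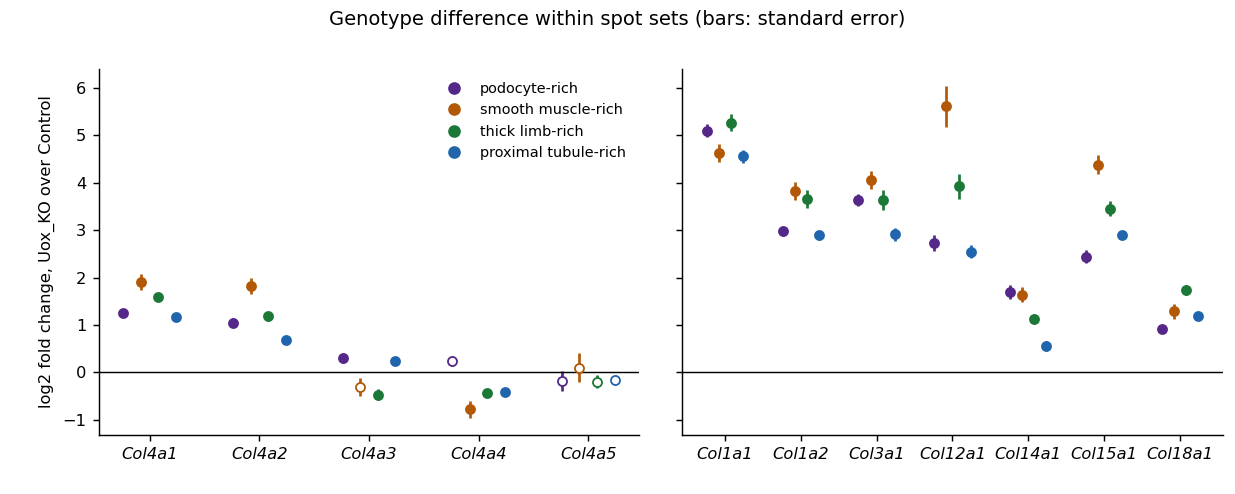
Log2 fold change of Uox_KO over Control within 4 marker-ranked spot sets, with bars for the standard error and open points where the adjusted p was 0.05 or more. Col4a1 and Col4a2 lie above 0 in every set, whereas Col4a3 lies above 0 in podocyte-rich and proximal tubule-rich spots and below it in thick limb-rich spots (0.29, 0.24 and -0.47). Under raw totals the thick limb values of Col4a3 and Col4a4 are no longer called.

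Col14a1 had the smallest p of the 33 collagen genes in that fit (edgeR adjusted p = 2.96e-07). Its log2 fold change was 1.70 ± 0.15 in podocyte-rich spots, 1.64 ± 0.17 in smooth muscle-rich, 1.12 ± 0.11 in thick limb-rich and 0.55 ± 0.10 in proximal tubule-rich spots. Col12a1 ranged from 2.54 ± 0.14 in proximal tubule-rich to 5.62 ± 0.43 in smooth muscle-rich spots. In the latter its Uox_KO levels were 638 and 201 CPM, so the sections differed widely. Col15a1 ranged from 2.44 ± 0.13 in podocyte-rich to 4.38 ± 0.20 in smooth muscle-rich spots, and Col18a1 from 0.91 ± 0.09 in podocyte-rich to 1.74 ± 0.10 in thick limb-rich spots.

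The machinery that makes, links, senses and removes collagen was read from 8 lists of 103 genes. Of 97 tested, 69 rose and 15 fell, with a median log2 fold change of 0.88. Over all genes tested 34.6% rose and 32.5% fell. With raw totals 76 of the 97 rose and 10 fell, against 49.8% and 17.9% of all genes. All 7 crosslinking genes rose. Lox, the lysyl oxidase that starts crosslinks, was at 1.53 and 1.74 CPM in Control and 25.9 and 20.7 CPM in Uox_KO (14.2-fold, edgeR adjusted p = 3.56e-06), and Loxl2 rose 5.69-fold. All 13 tested receptor genes rose. Cd44 was at 1.05 and 0.961 CPM against 26.7 and 21.9 CPM (24.2-fold, edgeR adjusted p = 1.73e-06), the collagen receptor kinase Ddr2 rose 4.88-fold and the uptake receptor Mrc2 rose 5.20-fold.

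Genes of collagen folding and modification were mixed. Among hydroxylases and glycosyltransferases 10 of 14 tested rose and 3 fell, against 34.6% and 32.5% of all genes tested. P4ha2 and Plod2 rose 2.06-fold and 2.30-fold, while P3h2, which hydroxylates type IV collagen, fell from 67.4 and 73.6 CPM to 39.6 and 38.2 CPM (log2 -0.86 ± 0.07, edgeR adjusted p = 4.98e-05). Of 12 chaperone and export genes 4 rose and 3 fell, shares near those over all genes. Serpinh1, the collagen-specific chaperone, was at 72.0 and 72.7 CPM against 256 and 239 CPM (3.43-fold, edgeR adjusted p = 3.55e-06). Sparc, a collagen-binding protein, was at 81.1 and 79.9 CPM against 610 and 607 CPM (7.55-fold, edgeR adjusted p = 1.27e-06). Mia3, whose product exports large procollagens from the endoplasmic reticulum, fell from 54.2 and 46.9 CPM to 39.6 and 40.3 CPM (log2 -0.34 ± 0.08, edgeR adjusted p = 0.00755), a call lost with raw totals (-0.07, adjusted p = 0.426).

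Over all genes tested 34.6% rose and 32.5% fell, which is the background for each list in this paragraph. Of 8 tested genes of procollagen proteinases and their enhancers, 4 rose and 2 fell. That list is short, and whether its shares differ from the background was not tested. Those that rose included the enhancers Pcolce and Pcolce2. Those that fell were Mep1a and Mep1b, and with raw totals neither was called (log2 -0.133 and -0.59, edgeR adjusted p = 0.3205 and 0.1278). Bmp1, which removes the C-terminal propeptide, rose 7.69-fold and Adamts2, which removes the N-terminal one, rose 16.1-fold. Of 10 fibril-associated proteoglycan genes 8 rose and 1 fell. Lum rose 40.8-fold and Bgn 5.94-fold, whereas Omd fell from 3.69 and 3.08 CPM to 1.07 and 0.958 CPM (edgeR adjusted p = 0.000146). Of 10 genes of collagen breakdown 7 rose and 2 fell. Mmp2 was at 2.85 and 3.08 CPM against 30.1 and 28.7 CPM (9.91-fold, edgeR adjusted p = 1.27e-06) and Ctsk rose 5.74-fold. Mmp13, a collagenase, was at 1.67 and 1.3 CPM against 0.649 and 1.22 CPM and did not pass (edgeR adjusted p = 0.0921).

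Of the other basement membrane genes, 16 of 23 tested rose and 4 fell, against 34.6% and 32.5% of all genes tested. Hspg2, which encodes perlecan, was at 23.5 and 25.4 CPM in Control and 59.4 and 60.5 CPM in Uox_KO (2.46-fold, edgeR adjusted p = 7.81e-06). Nid1 rose 2.66-fold, Lama4 2.94-fold and Agrn 2.24-fold. Lama3 fell from 16.2 and 13.9 CPM to 6.39 and 5.65 CPM (log2 -1.32 ± 0.11, edgeR adjusted p = 6.41e-05), and Lama1 fell from 9.85 and 10.5 CPM to 5.12 and 4.61 CPM (log2 -1.06 ± 0.09, edgeR adjusted p = 9.31e-05). Fras1 and Tinag were the other 2 that fell (log2 -0.82 and -0.38), and Tinag was not called with raw totals (-0.12, adjusted p = 0.135).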

How the data were processed

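The deposited files hold raw UMI counts per gene and spot. Per the submitters' processing notes they come from Space Ranger 1.3.1 and the mm10 build. Each section's counts were added up over its spots. After filterByExpr and TMM scaling, genotypes were compared in edgeR 4.0.16 under R 4.3.3 with the quasi-likelihood F test and no covariate, and p-values were adjusted by Benjamini-Hochberg over all genes of a fit, with 0.05 as threshold. Spot sets were fitted in the same way, and the difference between sets in 1 fit with mouse as a block. Class sums, spot shares and ranked spot groups are descriptions. Intervals cover counting error only. Promoters are from RefSeq on GRCm38.p6. Within a genotype the replicate sections differed by more than sampling noise (chi-square per degree of freedom 19.4 and 40.1).

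Every collagen gene that passed the filter is named, and up to 6 genes of a pathway list by smallest p. Mia3, Omd, Mmp13, Lama1, Fras1 and Tinag lie outside this rule and were chosen after their values were seen. Members, markers and lists were chosen with earlier results of these data known. Alternatives were DESeq2 1.42.0, RLE scaling, raw totals, no filter, a replicate block, thinning, removal of fat or urothelium spots, smaller and deeper spot sets and each section left out. The test was tried on simulated data, where more whole-section calls were false than the threshold allows, so calls with an adjusted p just under it are less certain than stated.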

Additional observations from a re-analysis of the deposited data

Results flagged for a closer look

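The genotype difference varied between podocyte-rich, smooth muscle-rich, thick limb-rich and proximal tubule-rich spots for 19 collagen genes, by an edgeR fit with mouse as a block and Benjamini-Hochberg adjustment over all genes. The adjusted p was 2.96e-07 for Col14a1, 5.40e-07 for Col4a3, 3.24e-06 for Col1a2, 4.07e-06 for Col4a2, 6.40e-06 for Col15a1 and 6.69e-06 for Col8a1. It was 3.39e-05 for Col12a1, 4.30e-05 for Col3a1, 4.52e-05 for Col18a1, 5.76e-05 for Col4a1, 7.38e-05 for Col6a6 and 7.97e-05 for Col4a4. It was 0.000753 for Col5a2, 0.00137 for Col6a3, 0.00150 for Col5a1 and 0.00260 for Col16a1. It was 0.0344 for Col4a6, 0.0386 for Col1a1 and 0.0465 for Col23a1. Over all genes in that fit 33.6% varied. The count of collagen genes was 11 without Control replicate 1 and 13 without Control replicate 2. All 4 sets were shallower in Uox_KO than in Control. The part of depth was not tested beyond the alternative named next. With sets drawn from spots of at least 5000 UMIs, an alternative chosen after seeing the data, the count was 17.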

How the results depend on the processing

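The count of 27 higher collagen genes ranged from 25 to 28 over all settings tried, and 25 of the 27 genes were called higher in every setting with a value (not Col7a1 and Col11a2). Of the 7 lower genes 4 were (Col4a4, Col6a6, Col19a1 and Col26a1). The count of lower genes was 4 with raw section totals, a scaling added after seeing the data, and 4 to 9 with 1 section left out, lowest without Control replicate 1. The log2 ratios of class sums (fibrillar 3.52, type IV 0.74, FACIT 2.05, others 1.98) were 3.79, 1.0, 2.32 and 2.25 with raw totals, and 0.79 for type IV without fat or urothelium spots. With raw totals 0 collagen genes were lower by edgeR in smooth muscle-rich spots (main count 1) and 1 in thick limb-rich spots (main count 4, 2 to 4 with 1 section left out). The count that varied between spot sets (19) was 11 to 19 with 1 section left out. Col6a4, not called, turned from -0.11 to 0.15 with raw totals. The gap in the share of spots with a UMI (type IV 10.6, FACIT 34.4, others 38.9 percentage points) was 21.8, 23.1 and 43.2 when spots were thinned to 2000 UMIs, and 40.4 for the others without fat or urothelium spots.

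Replicate numbers share only a number: the correlation of deviations over genes was 0.0899. A fit with the replicate block called 28 collagen genes higher and 8 lower in whole sections, and gained Col9a3 (adjusted p = 0.0439) and Col24a1 (adjusted p = 0.0467). In the spot sets it called 21, 21, 22 and 21 higher and 0, 1, 4 and 3 lower. With 2 sections per genotype an exact permutation test cannot go below 0.333. Depth was lower in Uox_KO, and scarce chains such as Col17a1 and Col11a1 rest on few UMIs.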
